A study of Mus musculus with 4 samples.

Results

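Small leucine-rich proteoglycans (SLRPs) are secreted proteins of the extracellular matrix. The genes described here are Dcn, Bgn, Aspn, Lum, Fmod, Omd, Prelp, Kera, Ogn and Podn, chosen by symbol, and all 10 were found among the 28006 features of the deposited matrices. An SLRP consists of a core of leucine-rich repeats that binds collagen, and many members carry chondroitin, dermatan or keratan sulfate chains. They space and align collagen fibrils in tendon, cartilage, bone and cornea, and several also bind growth factors such as TGF-β. The family is divided into classes by sequence. Decorin (Dcn), biglycan (Bgn) and asporin (Aspn) form class I, while lumican (Lum), fibromodulin (Fmod), osteomodulin (Omd), Prelp and keratocan (Kera) form class II. Osteoglycin (Ogn) belongs to class III and podocan (Podn) to class V.

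The study labeled bone marrow stromal cells (BMSCs) that express the chemokine Cxcl12 and asked how they respond when the marrow is mechanically removed. Mice carried Cxcl12-iCreER, a tamoxifen-inducible Cre from a bacterial artificial chromosome transgene driven by Cxcl12 regulatory sequence, and 1 copy of the R26R-tdTomato reporter, on a mixed background. All mice received tamoxifen 7 days before surgery, and femurs were taken 7 days after it. The right femur was ablated (ABL), and the left femur of operated mice was left untouched as the control (CONT). Each group therefore consisted of 2 libraries, both made from tdTomato+ cells sorted from enzymatically digested femurs whose distal growth plates had been removed. Replicate 1 of each group was prepared with Chromium chemistry v2 from pooled mice and replicate 2 with v3. Ages and sexes were not given in the sources used here. A single transgene line was used, and the tdTomato label marks cells in which the transgene was active around the tamoxifen dose, whatever they express at harvest.

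A total of 1459 to 3433 cells per library passed the filters, with medians of 5714 and 7338 unique molecular identifiers (UMIs) per cell in replicate 1 and 12895 and 12283 in replicate 2. CONT and ABL libraries shared 5 cell barcodes in replicate 1 and 1 in replicate 2. Cells expressing stromal genes (mesenchymal cells) numbered 1295 and 681 for the replicate 1 libraries (CONT, then ABL) and 2053 and 1809 for those of replicate 2. The rest were mostly hematopoietic cells in spite of the sort. The ABL library of replicate 2 stood apart. Only 344 of its 1809 mesenchymal cells (19.0%) were reticular, the Cxcl12-high stromal class, against 95.5% in the other library of replicate 2 and, in replicate 1, 89.8% (CONT) and 59.5% (ABL). Xist, which is transcribed in female cells, had a UMI in 1 of these 1809 cells, although both femurs are described as coming from the same mice, against 71.9% of mesenchymal cells in CONT of that replicate and, in replicate 1, 49.7% (CONT) and 81.4% (ABL). In reticular cells, 4 Y-linked genes summed to 89.9 (CONT) and 25.0 (ABL) UMIs per 1000000 for replicate 1. For replicate 2 they summed to 58.8 and 161. The effect of ablation and that of the sex of the mice therefore cannot be told apart in replicate 2 as a whole. Nor are they fully separate in replicate 1, where Xist and Y-linked levels also differed, in the other direction. Values restricted to cells with a Y-linked UMI and no Xist UMI are given beside the SLRP results. Cell classes were named from marker genes, and the SLRP genes were not used to cluster the cells. The markers were left out when mesenchymal cells were divided into classes, but not when these were separated from other cells. The reticular class carried its defining genes in every library, but not all at steady levels. Cxcl12 was at 14155 to 17243 CPM (UMIs of a gene per 1000000 UMIs) and Adipoq at 1899 to 2229 CPM. Lepr, the leptin receptor gene that marks marrow stromal cells, was at 1241 and 706 CPM for replicate 1 (CONT, then ABL) and at 2192 and 612 CPM for replicate 2, and was called lower after ablation (log2 fold change -1.43, adjusted p = 0.03 from the edgeR fit used for the SLRP genes). The 9 reticular markers summed to 26137 and 23495 CPM for replicate 1 and to 30329.6 and 23339 CPM for replicate 2.

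Of the 10 genes, 8 lie beside each other in 3 groups of the mouse genome (GENCODE M21, GRCm38). Aspn (chr13:49544443-49567565), Omd (chr13:49582462-49592822) and Ogn (chr13:49608046-49624501) follow one another on the plus strand, with gaps of 14.9 and 15.2 kb and no other coding gene between them. Dcn (chr10:97479609-97518143), Lum (chr10:97565128-97572703) and Kera (chr10:97606879-97613692) form a row on chromosome 10 with gaps of 47.0 and 34.2 kb. Prelp (chr1:133910304-133921414, minus strand) and Fmod (chr1:134037254-134048277, plus strand) are neighbors 116 kb apart. Bgn (chrX:73483602-73495933) is on the X chromosome, and Podn (chr4:108014791-108096445) is on the minus strand of chromosome 4.

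The stretches directly before the transcription starts of Aspn, Omd and Ogn are shown because Aspn and Omd, but not Ogn, were called higher after ablation in reticular cells, and that of Fmod because it was called higher there. Each run is 250 bases from RefSeq (GRCm38.p6), 5′ to 3′, on the plus strand, with matches to 4 motifs in capitals.
Aspn, chr13:49544193-49544442: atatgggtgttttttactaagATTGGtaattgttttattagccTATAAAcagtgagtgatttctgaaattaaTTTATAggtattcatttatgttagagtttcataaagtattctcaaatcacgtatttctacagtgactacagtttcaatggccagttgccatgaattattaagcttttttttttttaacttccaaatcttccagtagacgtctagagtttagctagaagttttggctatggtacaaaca
Omd, chr13:49582212-49582461: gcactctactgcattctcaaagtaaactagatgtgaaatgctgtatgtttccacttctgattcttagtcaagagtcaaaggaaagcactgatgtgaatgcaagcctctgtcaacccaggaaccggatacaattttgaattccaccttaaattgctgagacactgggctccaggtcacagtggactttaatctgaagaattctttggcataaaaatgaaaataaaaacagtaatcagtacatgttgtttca
Ogn, chr13:49607765-49608014: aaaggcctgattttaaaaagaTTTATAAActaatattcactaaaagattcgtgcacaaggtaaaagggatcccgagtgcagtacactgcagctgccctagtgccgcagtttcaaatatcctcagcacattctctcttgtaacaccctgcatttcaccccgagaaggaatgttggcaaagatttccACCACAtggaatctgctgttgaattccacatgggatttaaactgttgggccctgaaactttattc
Fmod, chr1:134037004-134037253: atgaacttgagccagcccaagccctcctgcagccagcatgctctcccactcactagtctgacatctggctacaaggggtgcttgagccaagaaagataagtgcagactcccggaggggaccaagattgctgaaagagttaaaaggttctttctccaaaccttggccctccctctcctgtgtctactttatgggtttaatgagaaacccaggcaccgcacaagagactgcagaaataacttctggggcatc
The motifs, searched on both strands, were the TATA box TATAAA and the AP-1 site TGANTCA. The others were the core of RUNX sites, TGTGGT, and the pentamer CCAAT. Distances are from the RefSeq start, which for Ogn lies upstream of the GENCODE gene start and is not in a GENCODE transcript. Aspn held 2 separate TATAAA matches, 207 and 178 bases before the start, and 1 CCAAT match on the minus strand. Ogn held 2 TATAAA matches that overlap on opposite strands, beginning 229 and 227 bases before the start, and a RUNX core match on the minus strand 65 bases before it. No match to the 4 motifs was found in these windows of Omd and Fmod. The windows of Podn, which was called higher as well, held no match either and are not shown. That of Prelp, the uncalled neighbor of Fmod, held 1 CCAAT match and is not shown. Among 32851 mouse promoter windows of the same length, 12.4% held TATAAA, 6.75% TGANTCA, 14.0% TGTGGT and 33.8% CCAAT.

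In reticular cells, the SLRP transcripts of both groups were mostly those of Bgn, Ogn, Prelp and Dcn. Levels are given as CPM of the UMIs summed over the cells of a class in a library. One UMI counts one captured 3′ end, so CPM values were not divided by transcript length. The 10 genes together summed to 3652 CPM (CONT) and 3836 CPM (ABL) for replicate 1 and to 2358 and 3351 CPM for replicate 2. Bgn was the highest member in every library, at 1293 to 2464 CPM, followed by Ogn at 450.1 to 672 CPM. Prelp, which links basement membranes to the matrix, ranged from 182 to 389.6 CPM, and Dcn from 207 to 490.1 CPM. Lum ranged from 32.4 to 219 CPM. Lower still were Podn (16.7 to 65.0 CPM), Omd (10.1 to 32.8 CPM), Fmod (2.35 to 37.6 CPM) and Aspn (0.962 to 85.0 CPM). Kera, the keratan sulfate proteoglycan of the cornea, had 0 UMIs in the reticular cells of all 4 libraries, which allows a level of up to 0.115 CPM in the deepest library and 1.10 CPM in the shallowest.

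Reticular cells that carried no SLRP UMI were rare, and no member but Bgn was detected in nearly all of them. After each cell was thinned to 2000 UMIs, which left out no cell, 95.8% to 99.3% of reticular cells had a UMI of any member. A Bgn UMI was found in 85.0% to 97.5% of cells, Ogn in 53.1% to 63.1%, Prelp in 23.0% to 52.1% and Dcn in 25.3% to 46.9%. In hematopoietic cells, which should lack these genes and had medians of 7184 to 14600 UMIs, the thinned share for Bgn was 4.62% to 14.0% and that for Ogn 1.15% to 4.28%. Without thinning, the Ogn share of reticular cells was 84.5% to 91.2%. For Aspn the thinned shares were 0.688% (CONT) and 2.22% (ABL) for replicate 1 and 0.102% and 6.69% for replicate 2, and the hematopoietic cells of the same libraries gave 0.246%, 0.591%, 0.307% and 0.693%. The Aspn share of CONT replicate 2 was thus not above the background of its own library. Unthinned, the Aspn shares were 1.46%, 6.17%, 0.612% and 14.5% in the same order.

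Outside the reticular class, the distribution over classes differed among the members, although Dcn and Lum were alike in many classes. Only sums over at least 10 cells are named, and most of these come from ABL libraries, since CONT libraries held few non-reticular mesenchymal cells. Dcn, the main collagen-binding proteoglycan of fibrous tissue, reached 14354 CPM in the 11 periosteal cells of ABL replicate 1 and 9758 CPM in the 461 of ABL replicate 2. It was at 10303 CPM in the 195 joint-lining cells of ABL replicate 2. These 3 levels did not overlap in their counting intervals. The 11 cells that clustered with the joint-lining class in CONT replicate 2 had 0 UMIs of Prg4, a lubricant gene of the joint surface, so their values are not used for that class. Aspn was highest, at 2224 CPM, in the ABL cells of a replicate 2 cluster that stayed unnamed (1033 CPM in its CONT cells) and whose leading genes included Dio2, Mfap4, Igf2 and Tnmd, the last a tendon gene. It was next at 1847 CPM in periosteal cells of ABL replicate 2. Bgn varied least, from 877 to 5671 CPM over all named and unnamed mesenchymal sums apart from those 11 cells of CONT replicate 2.

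Injury mesenchymal cells, of which replicate 1 held 52 in CONT and 85 in ABL, had a higher summed SLRP level in CONT. The 10 genes summed to 18096 CPM there and to 6311 CPM in ABL, with Dcn at 8418 and 1203 CPM, Lum at 4395 and 1241 CPM and Aspn at 1247 and 478 CPM. Fmod went the other way, at 73.5 CPM in CONT and 198 CPM in ABL, and Bgn, Omd and Podn overlapped in their counting intervals. Dcn made up 46.5% of the SLRP UMIs of the CONT cells and 19.1% of those of the ABL cells. The class is named from markers, and its CONT cells come from femurs left untouched. Whether both groups hold the same kind of cell was not tested. With 1 library per group the differences in level were not tested either.

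Lum followed Dcn in many classes. It reached 5394 CPM in periosteal cells of ABL replicate 2 but 1095 CPM in the joint-lining cells that were rich in Dcn. Fmod, which regulates fibril growth in tendon and cartilage, was highest at 2541 CPM in an unnamed cluster of 413 cells that was found only in ABL replicate 2. The leading genes of that cluster were Cytl1, Msmp, 1500015O10Rik and Fmod itself. Fmod was at 916 and 2183 CPM in the chondrocytes of ABL replicates 1 and 2. Omd, an SLRP of mineralized tissue, was at 977 CPM in the chondrocytes of ABL replicate 2 but 56.5 CPM in those of ABL replicate 1. In replicate 1, pre-osteoblasts carried 206 CPM of Omd in CONT and 169 CPM in ABL. Prelp was also uneven between the 2 chondrocyte sums, with 1416 CPM in ABL replicate 1 and 356 CPM in ABL replicate 2.

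Among mesenchymal cells, Kera was found in 1 library only. In ABL replicate 2 it was at 261 CPM in the cluster with Tnmd, 82.6 CPM in periosteal cells and 33.1 CPM in the cluster led by Cytl1, with 0 UMIs in each mesenchymal sum of the other 3 libraries. Ogn was low where several other members were high. It was at 19.0 CPM in joint-lining cells, 36.3 and 43.7 CPM in chondrocytes and 33.0 CPM in osteoblasts, below every reticular sum, and reached 1804 and 1959 CPM in the cluster with Tnmd. Podn did not exceed 72.7 CPM in any class. Endothelial cells carried 321 to 493 CPM of Bgn and 65.0 to 145 CPM of Prelp in the 3 libraries with such a cluster, and their Omd and Kera counts were 0.

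**Figure D1:**
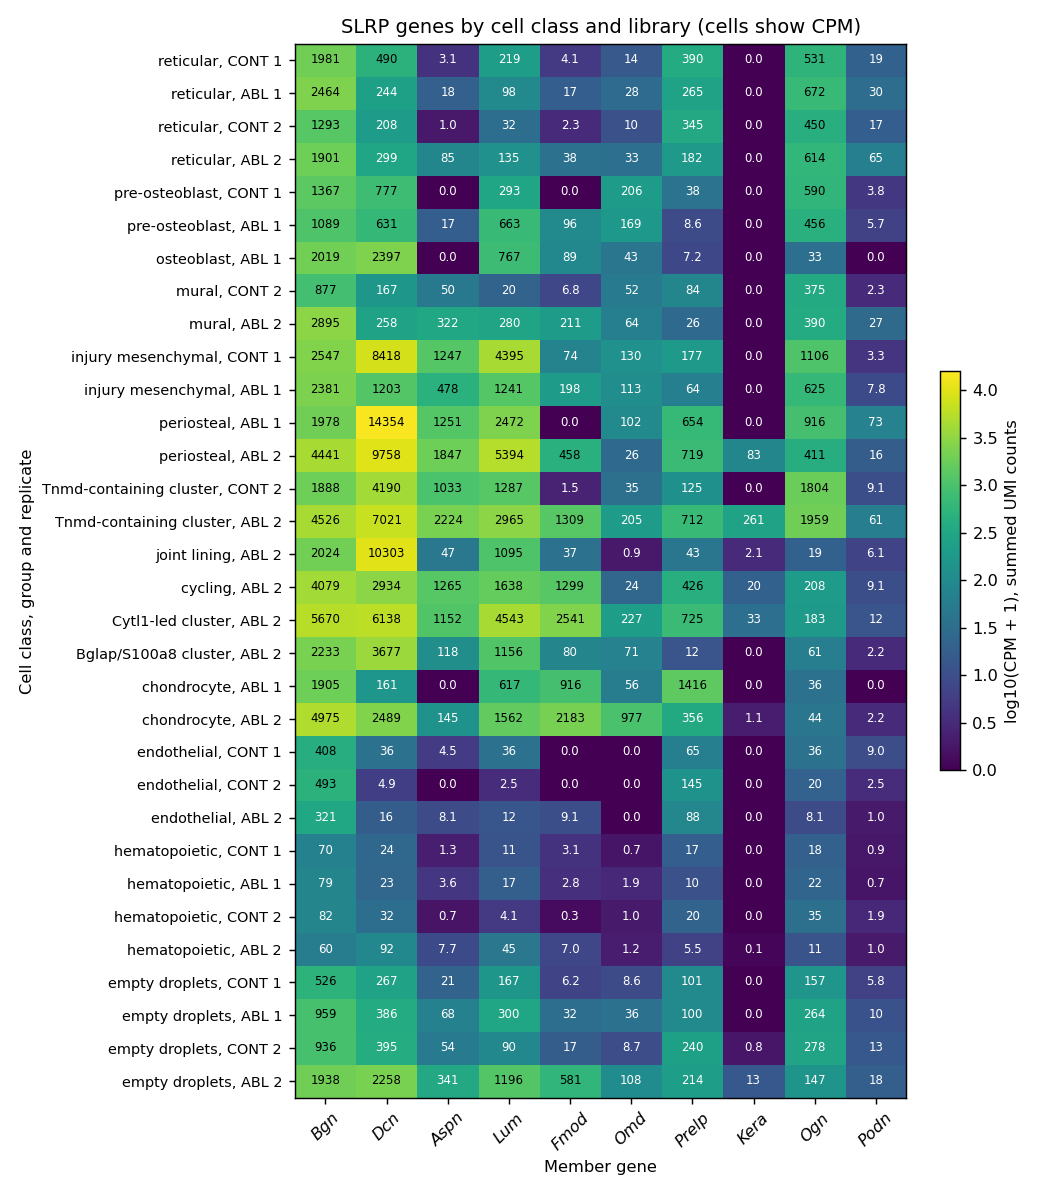
Levels of the 10 SLRP genes (columns) in each cell class of each library (rows), as CPM printed in each cell and colored by log10(CPM + 1). Reticular rows are high in Bgn and Ogn, while Dcn is highest in the periosteal and joint-lining rows of ABL, Lum in the periosteal row of ABL replicate 2, and Kera is near 0 outside that library.

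The comparison of ABL with CONT asked which members change after marrow ablation in cells that were still assigned to the reticular class, in which Lepr was lower than in CONT. Aspn, Fmod, Omd and Podn were higher in ABL in both replicates, by fitted factors of 30.2, 8.45, 2.43 and 2.40, and Bgn, Dcn, Lum, Ogn and Prelp were not called. UMI sums were tested with the quasi-likelihood test of edgeR with replicate (chemistry) as a block, and p-values were adjusted over all 11373 genes tested by the Benjamini-Hochberg method. The test rests on 1 residual degree of freedom per gene, so its estimate of spread draws on all genes tested together. Its p-values and SEs cover these libraries only and do not measure how far the replicates of a single gene differ. For Aspn the replicates alone gave log2 fold changes of 2.44 and 6.39 beside an SE of 0.36. Of the 10 members, 9 passed the filter on low counts and 4 of these were called higher at an adjusted p under 0.05, with 0 lower. Over all genes tested, 2.32% were called higher and 2.1% lower. Kera did not pass the filter.

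Aspn showed the largest difference of the members. Its reticular level was 3.08 CPM (CONT, 18 UMIs) and 18.4 CPM (ABL, 55 UMIs) for replicate 1 and 0.962 CPM (25 UMIs) and 85.0 CPM (233 UMIs) for replicate 2. Both ABL values lay above both CONT values. The log2 fold change was 4.92 (SE 0.36, adjusted p = 9.8e-32), and the replicates taken alone gave 2.44 and 6.39. Few cells carried these transcripts. One cell of ABL replicate 1 held 20 of the 55 UMIs, and the highest cell of ABL replicate 2 held 29 of the 233. Across the reticular clusters of ABL replicate 2, Aspn ranged from 3.19 to 234 CPM.

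Fmod was at 4.10 CPM (CONT) and 16.7 CPM (ABL) for replicate 1 and at 2.35 and 37.6 CPM for replicate 2, so that both ABL libraries were above both CONT libraries. The log2 fold change was 3.08 (SE 0.34, adjusted p = 3.4e-15). Omd was at 13.8 CPM (CONT) and 28.0 CPM (ABL) for replicate 1 and at 10.1 and 32.8 CPM for replicate 2, again without overlap (log2 fold change 1.28, SE 0.26, adjusted p = 0.00014). In ABL replicates 1 and 2 the top 5% of cells held 62.0% and 69.9% of Fmod UMIs and 66.7% and 75.6% of Omd UMIs. In CONT these shares were 100% and 100% for Fmod and 82.7% and 58.0% for Omd. Fmod ranged from 0 to 176 CPM across the reticular clusters of ABL replicate 2. Podn, a member of class V known from the kidney and from vascular smooth muscle, was at 19.3 and 30.4 CPM in replicate 1 and at 16.7 and 65.0 CPM in replicate 2 (log2 fold change 1.26, SE 0.25, adjusted p = 4.6e-05). The rise of Podn was 0.52 on the log2 scale in replicate 1 alone and 1.89 in replicate 2 alone. How many of all genes tested had both ABL libraries on the same side of both CONT libraries was not counted.

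The members with high reticular levels gave smaller differences. Bgn was at 1981 CPM (CONT) and 2464 CPM (ABL) for replicate 1 and at 1293 and 1901 CPM for replicate 2 (log2 fold change 0.33, SE 0.45, adjusted p = 0.83), and the groups overlapped. Ogn was at 531 and 672 CPM in replicate 1 and at 450.1 and 614 CPM in replicate 2 (log2 fold change 0.29, SE 0.37, adjusted p = 0.81). Its ABL values were above its CONT values, by less than the fitted error. Prelp was at 389.6 and 265 CPM in replicate 1 and at 345 and 182 CPM in replicate 2. Both ABL values were lower, with a log2 fold change of -0.84 (SE 0.33) and an adjusted p of 0.13.

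Dcn and Lum went opposite ways in the replicates. Dcn was at 490.1 CPM (CONT) and 244 CPM (ABL) for replicate 1 but at 207 and 299 CPM for replicate 2, and its log2 fold change was -1.14 in replicate 1 alone and 0.46 in replicate 2 alone. Lum was at 219 and 98.4 CPM in replicate 1 and at 32.4 and 135 CPM in replicate 2, or -1.28 and 1.99 on the log2 scale. One of the 344 reticular cells of ABL replicate 2 held 146 of the 819 Dcn UMIs. The top 5% of cells held 33.4% (CONT) and 49.1% (ABL) of the Dcn UMIs of replicate 2. For Lum these shares were 71.4% and 66.1%. The fitted values were -0.34 for Dcn (SE 0.34, adjusted p = 0.74) and 0.35 for Lum (SE 0.31, adjusted p = 0.71). Between the CONT libraries alone, Lum differed by a larger factor than between ABL and CONT of either replicate.

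Among chromosomal neighbors, then, Aspn and Omd were called higher in reticular cells and Ogn, next to Omd, was not. Fmod was called higher and Prelp was not. Whether neighbors differed from each other in their response was not tested.

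**Figure D2:**
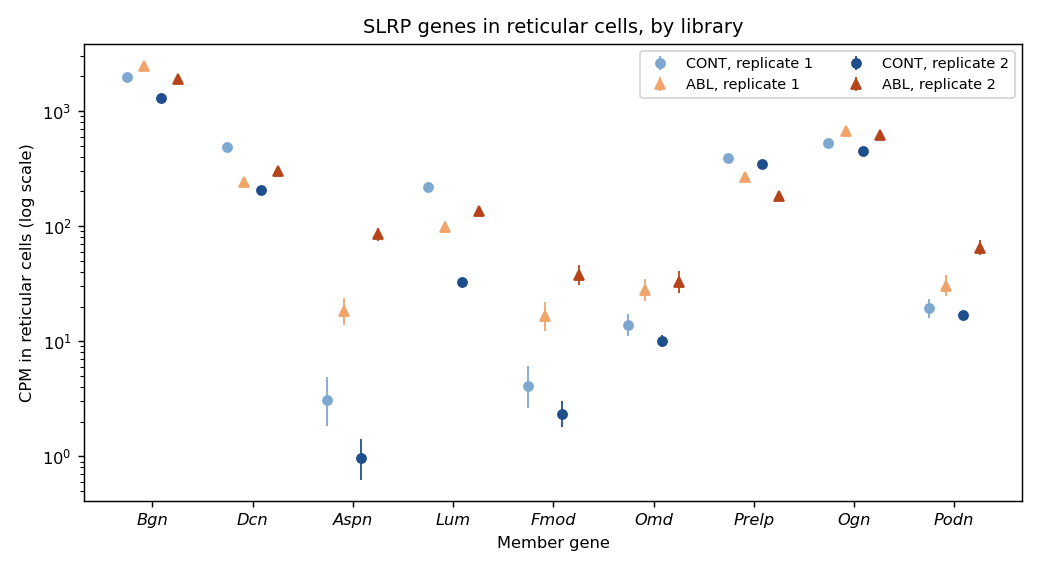
CPM of 9 SLRP genes in reticular cells on a log axis, with CONT libraries as blue circles, ABL libraries as orange triangles and bars for exact 95% Poisson intervals, which cover counting error only. Triangles lie above both circles for Aspn, Fmod, Omd, Podn and Ogn, and below both for Prelp. The share of all genes that separate like this was not counted. Kera is not drawn because its counts were 0.

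The choice of fit mattered for every call. Without the replicate block, 0 genes were called in reticular cells (335 at an unadjusted p under 0.05), and the adjusted p of all 9 members was 1.0. Unadjusted p-values of that fit were 0.0028 for Fmod, 0.0043 for Aspn, 0.011 for Omd and 0.031 for Podn. DESeq2 with the block called 163 genes, among the members only Fmod (adjusted p = 0.00011), and gave adjusted p = 0.14 for Aspn, 0.20 for Omd and 0.19 for Podn. Among reticular cells with a Y-linked UMI and no Xist UMI, Aspn was called (log2 fold change 5.87, adjusted p = 0.009), while Fmod (2.08, adjusted p = 0.11), Omd (1.21, adjusted p = 0.36) and Podn (1.13, adjusted p = 0.18) were not. Only 43 such cells (248962 UMIs) came from ABL replicate 1, and over all 9577 genes tested 41 were called higher and 17 lower.

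Free RNA in the droplets moved with these differences. In droplets of at most 300 UMIs, taken as empty, Fmod was at 6.25 CPM (CONT) and 31.7 CPM (ABL) for replicate 1 and at 16.7 and 581 CPM for replicate 2. The same droplets of ABL replicate 2 held 2258 CPM of Dcn, 1196 CPM of Lum and 341 CPM of Aspn. For an estimate, every UMI of myeloid and erythroid marker genes in reticular cells was taken as free RNA, with Lyz2, Csf1r and Ptprc left out. Such RNA was then 9.22% (CONT) and 8.84% (ABL) of reticular UMIs for replicate 1 and 0.89% and 11.65% for replicate 2. At that share it would bring 67.7 CPM of Fmod to the reticular cells of ABL replicate 2, where 37.6 CPM were measured, 139 CPM of Lum, where 135 CPM were measured, and 263 CPM of Dcn, where 299 CPM were measured. For Aspn it would bring 39.7 of 85.0 CPM, and for Podn 2.05 of 65.0 CPM.

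With this share subtracted from the sums before the same test, Aspn (log2 fold change 5.65, adjusted p = 1.2e-35), Podn (1.32, adjusted p = 5.9e-06) and Omd (0.95, adjusted p = 0.021) were still called higher, but Fmod was not (0.56, adjusted p = 0.76). Dcn (-1.84, adjusted p = 4e-06) and Lum (-2.48, adjusted p = 1.1e-14) were then called lower. Over all genes of that fit, 2.13% were called higher and 2.25% lower. For Fmod and Lum of ABL replicate 2 the subtraction removed more than was measured, so these calls rest on the size of the estimate. Hematopoietic cells of that library, which carry free RNA too, had 6.96 CPM of Fmod, 44.5 CPM of Lum and 92.0 CPM of Dcn, each below the reticular level. The estimate for replicate 2 followed the erythroid markers, which summed to 279 CPM (CONT) and 2143 CPM (ABL) in reticular cells. The full list of myeloid markers, with those left out of the estimate, summed to 143 and 120.1 CPM. The share of free RNA in these levels is therefore uncertain. In replicate 1, free RNA would bring 2.81 of the 16.7 CPM of Fmod in ABL and 0.576 of the 4.10 CPM in CONT.

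**Figure D3:**
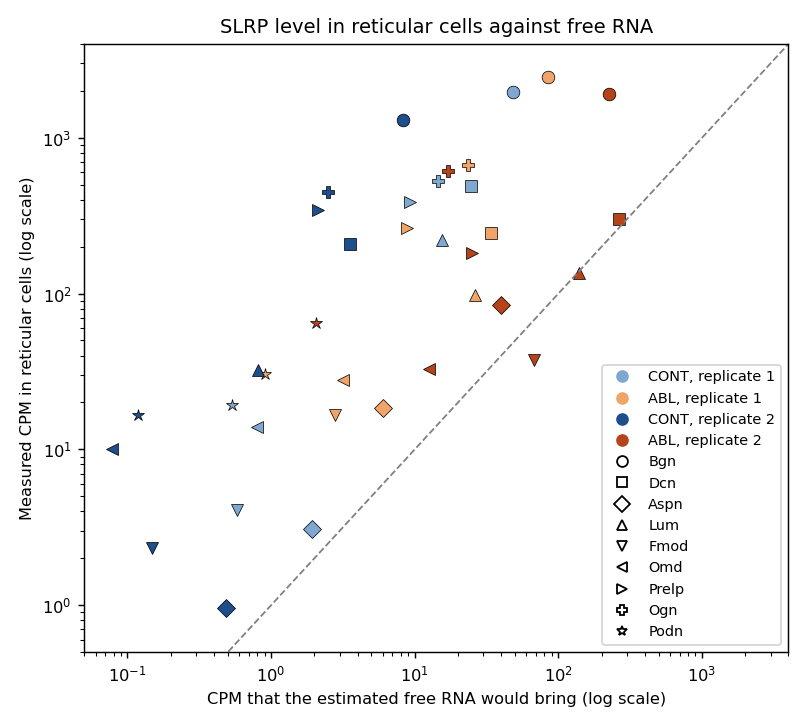
Measured CPM of 9 SLRP genes in reticular cells against the CPM that the estimated free RNA would bring, both on log axes, with colors for libraries, symbols for genes and a dashed line where both are equal. Fmod and Lum of ABL replicate 2 lie below the line and Dcn of that library just above it, while all points of the other 3 libraries lie above the line.

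Markers of other classes also moved in the reticular sums. Pairs within CONT or within ABL give replicate 1, then replicate 2. Of 8 osteoblast markers 7 were tested, with 4 called higher and 1 lower, and their sums went opposite ways, from 4361 CPM (CONT) to 5761 CPM (ABL) for replicate 1 and from 7504 to 4627 CPM for replicate 2. Of 8 erythroid markers 7 were tested and 0 called, with sums of 14891 and 8529 CPM for replicate 1 and of 279 and 2143 CPM for replicate 2. Of 9 pre-osteoblast markers 7 were called higher, and their summed level was 1775 and 1721 CPM in CONT against 5535 and 5998 CPM in ABL. Of 9 periosteal markers 4 were called higher (112 and 32.0 CPM summed in CONT, 479 and 234 CPM in ABL), with Cd34 at 0 in ABL replicate 1. Of 9 chondrocyte markers 3 were called higher (56.9 and 44.3 CPM in CONT, 176 and 97.1 CPM in ABL), with Acan, Hapln1 and Cytl1 at 0 in CONT replicate 2. Of 5 tendon markers 1 could be tested and it was not called. Their sums rose in replicate 1 and fell in replicate 2 (12.6 and 17.4 CPM in CONT, 20.4 and 15.7 CPM in ABL). Tnmd was at 0 in CONT replicate 1, Scx in ABL replicate 2 and Cilp2 in ABL replicate 1. Thbs4 was at 0 in CONT replicates 1 and 2 and in ABL replicate 2. Of 8 injury mesenchymal markers 4 were called higher (1568 and 1310.5 CPM in CONT, 3309 and 2378 CPM in ABL), and of 8 joint-lining markers 1 higher and 1 lower (867 and 517 CPM in CONT, 866 and 622 CPM in ABL). Myeloid markers, of which 1 of 9 was called lower, followed chemistry, with 9695 and 5956 CPM in replicate 1 and 143 and 120.1 CPM in replicate 2. Of 18 genes induced by tissue dissociation 4 were called lower (15484 and 19022 CPM in CONT, 10699.9 and 11919 CPM in ABL). Their part in the differences of the SLRP genes was not tested.

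Over all mesenchymal cells together, which adds the change in cell classes to the change within them, no SLRP gene was called at an adjusted p under 0.05, and the replicates differed widely. Here 13647 genes were tested, and 1.4% were called higher and 0.462% lower. On simulated counts this fit recovered 90 of 200 genes changed by 2 on the log2 scale, so an uncalled gene may still differ. Fmod was at 24.1 CPM (CONT) and 102 CPM (ABL) for replicate 1 and at 7.50 and 981 CPM for replicate 2 (log2 fold change 4.53, SE 1.21, adjusted p = 0.089). Omd was at 27.0 and 62.5 CPM and at 11.9 and 111 CPM (log2 fold change 2.19, SE 0.55, adjusted p = 0.075). For both genes the ABL values were above the CONT values, as they also were for Aspn, Bgn and Lum. How many of all genes did so was not counted. Aspn was at 75.3 and 114 CPM for replicate 1 and at 28.9 and 991 CPM for replicate 2 (log2 fold change 2.82, SE 1.11, adjusted p = 0.24).

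Dcn was at 1015 CPM (CONT) and 857 CPM (ABL) for replicate 1 but at 334 and 6029 CPM for replicate 2, and Lum at 456 and 485 CPM and at 73.2 and 2968 CPM. The ABL value was thus far above the CONT value in replicate 2 only, with log2 fold changes of 4.29 for Dcn and 5.46 for Lum in that replicate alone and -0.32 and 0.01 in replicate 1 alone. Kera had 978 UMIs in ABL replicate 2 and 0 UMIs in the other 3 libraries, which makes its level in ABL at least 351-fold higher than in CONT of replicate 2, at a limit of 3 counts in CONT replicate 2. Bgn (0.84, adjusted p = 0.73), Ogn (-0.35, adjusted p = 0.84), Prelp (-0.18, adjusted p = 0.93) and Podn (0.07, adjusted p = 0.96) gave smaller log2 fold changes. Among cells with a Y-linked UMI and no Xist UMI, Fmod (log2 fold change 4.22, adjusted p = 0.04) and Aspn (3.71, adjusted p = 0.014) were called higher. Over all 11444 genes of that fit, 458 were called higher and 424 lower, more than in the main fit. Only 75 such cells came from ABL replicate 1. The fit without ABL replicate 1 and without the block has only ABL replicate 2, the library that stood apart, on its ABL side. Its calls are therefore not given.

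**Figure D4:**
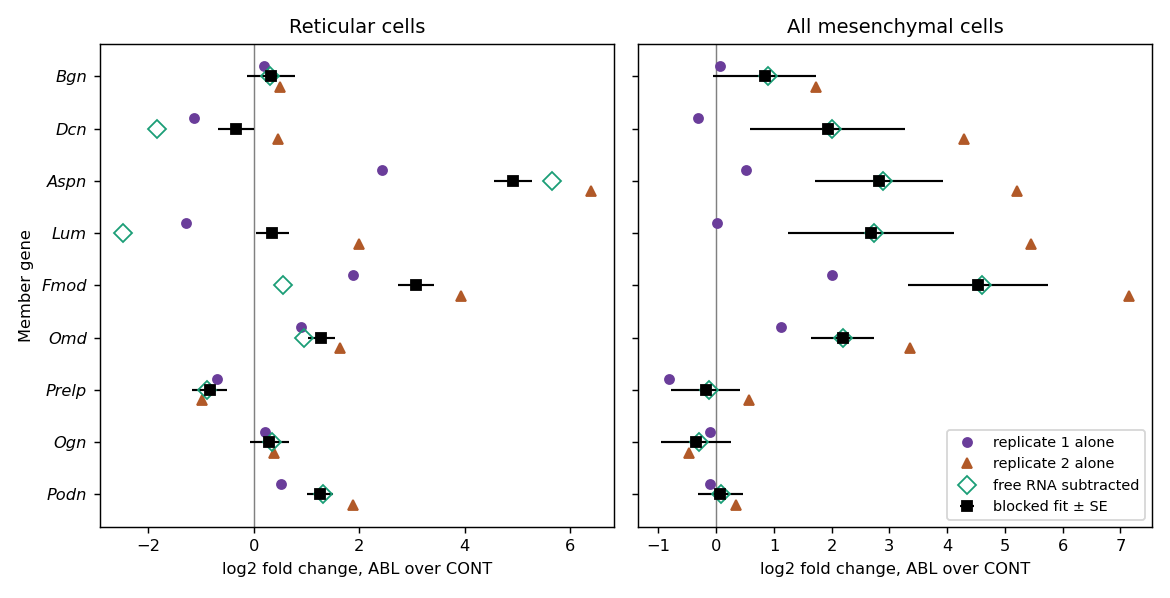
Log2 fold change of ABL over CONT for 9 SLRP genes in reticular cells (left) and in all mesenchymal cells (right), with black squares and bars for the blocked fit and its SE, purple circles for replicate 1 alone, brown triangles for replicate 2 alone and open diamonds after subtraction of free RNA. Dcn and Lum of reticular cells fall on opposite sides of 0 in the replicates and drop to -1.84 and -2.48 after subtraction, and most squares on the right lie between a small value for replicate 1 and a large one for replicate 2.

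The make-up of the SLRP transcript pool differed between reticular cells and the sum of all other mesenchymal cells. Mural cells of replicate 2, however, had Bgn and Dcn shares near the reticular ones. Bgn made up 54.3% and 54.8% of SLRP UMIs in reticular cells of CONT and 64.2% and 56.7% in ABL, against 17.8% to 35.4% in the other mesenchymal cells. Dcn made up 6.35% to 13.4% in reticular cells and 28.0% to 45.2% in the sum of the others, without overlap. Single classes could differ from that sum. Mural cells of replicate 2 held 53.7% (CONT) and 64.7% (ABL) Bgn and 10.2% and 5.77% Dcn. Chondrocytes of ABL replicate 1 also held little Dcn (3.16%). Their pool was otherwise unlike the reticular one, with 37.3% Bgn, 27.7% Prelp, 17.9% Fmod and 0.711% Ogn. Ogn held 14.6% to 19.1% of the reticular pool. Prelp held 10.7% (CONT) and 6.90% (ABL) of it for replicate 1 and 14.6% and 5.42% for replicate 2, and the 95% binomial intervals, which cover counting error only, did not overlap within a replicate. Aspn, Fmod, Omd and Podn each held at most 2.54%. In the mesenchymal cells as a whole, Dcn made up 22.7% (CONT) and 18.8% (ABL) for replicate 1 but 12.9% and 38.0% for replicate 2. For Ogn these shares were 12.1%, 11.6%, 18.6% and 2.02%. With 2 libraries per group these shares were not tested.

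**Figure D5:**
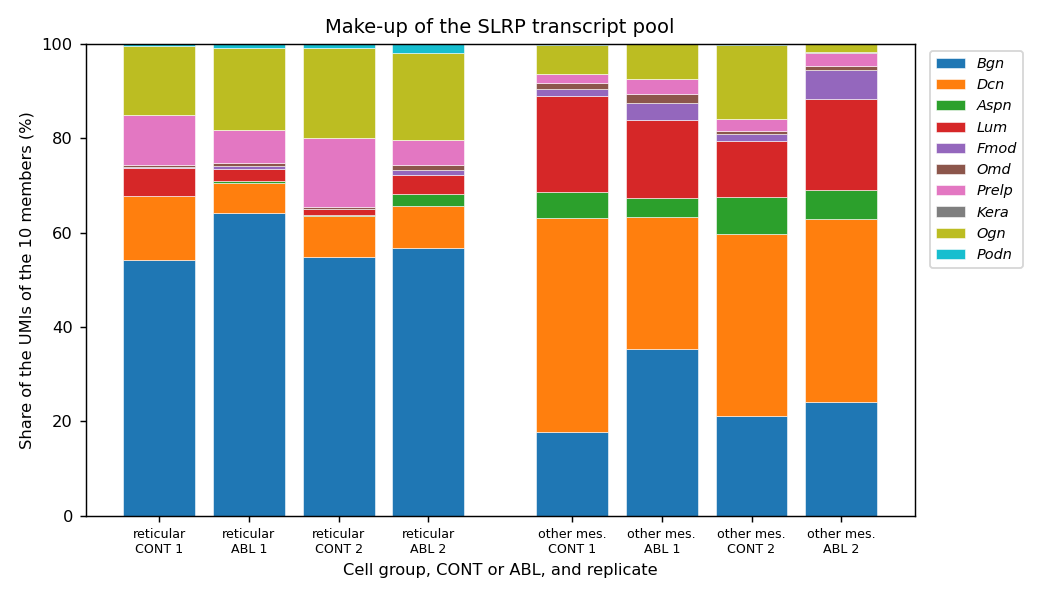
Share of each gene in the UMIs of the 10 SLRP genes (stacked bars that sum to 100%), for reticular cells (left 4 bars) and all other mesenchymal cells (right 4 bars, labeled other mes.) of each library. Bgn takes 54.3% to 64.2% of the reticular bars and 17.8% to 35.4% of the others, where Dcn and Lum take more.

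Genes that build, bind or cut SLRPs were examined in the same reticular fit, in 6 lists. Of 13 fibrillar and fibril-associated collagens, the binding partners of SLRPs, 12 were tested and 5 were called higher with 0 lower, and their median log2 fold change was 0.85 against -0.01 over all genes tested. Col1a1, the main chain of bone collagen, was at 414 and 181 CPM in CONT and 2713 and 2036 CPM in ABL (log2 fold change 3.00, SE 0.46, adjusted p = 4.8e-08). Col2a1, the cartilage collagen, was at 21.5 and 1.38 CPM in CONT and 82.4 and 32.1 CPM in ABL (2.92, SE 0.27, adjusted p = 3.9e-20), while empty droplets of ABL held 835 and 2516 CPM of it. After subtraction of free RNA Col2a1 could no longer be tested, whereas Col1a1 (2.22, adjusted p = 2e-05), Col6a3 (1.38, adjusted p = 1.5e-05) and Col3a1 (1.81, adjusted p = 0.00034) were still called higher.

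Enzymes of the sugar chains formed the next lists. Of 18 genes for the linker and chain synthesis 16 were tested and 1 was called higher, Xylt2, one of the xylosyltransferases that start the chain on the core protein (16.6 and 11.5 CPM in CONT, 33.4 and 21.2 CPM in ABL, log2 fold change 0.84, SE 0.26, adjusted p = 0.036). The median of the list was 0.18, and over all genes of this fit 2.32% were called higher. Ugdh, which makes the UDP-glucuronic acid used in the chains, had a log2 fold change of 0.71 (adjusted p = 0.086). Of 15 sulfation genes 12 were tested, with 0 called in either direction and a median of -0.06. The smallest adjusted p of the sulfation list was 0.52, for Chst11, a chondroitin 4-sulfotransferase.

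Of 12 signaling partners 11 were tested. Wisp1, a matricellular protein that binds decorin and biglycan, was called higher (12.6 and 3.54 CPM in CONT, 44.7 and 29.9 CPM in ABL, log2 fold change 2.34, SE 0.27, adjusted p = 1.4e-13). Tgfb3, a TGF-β ligand, was called lower (88.2 and 91.3 CPM in CONT, 72.7 and 39.8 CPM in ABL, log2 fold change -0.83, SE 0.25, adjusted p = 0.023), and the median of this list was -0.13. Of 10 proteases that cleave SLRPs 8 were tested and 1 was called higher, the gelatinase Mmp2 (54.9 and 26.2 CPM in CONT, 188 and 156 CPM in ABL, log2 fold change 2.07, SE 0.26, adjusted p = 1.2e-11). The aggrecanases Adamts1 (-1.08, adjusted p = 0.084) and Adamts4 (-0.68, adjusted p = 0.092) had lower values in ABL without being called. Of 8 further SLRP family genes 5 were tested and 0 called. The smallest unadjusted p of these was that of Ecm2, the gene next to Aspn (-0.56, adjusted p = 0.23). Without the replicate block, 0 genes of the 6 lists were called.

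Similarity of patterns was described over 23 sums of UMIs (cell class by library, at least 10 cells), which share libraries and chemistry, on log2(CPM + 10), against 5851 genes with a mean of at least 20 CPM. The genes most like Dcn were Lum (Pearson's r = 0.91), Nbl1 (0.90) and Ctsk (0.87), and those most like Lum were Dcn, Mmp2 (0.90) and Dnm1 (0.89). Aspn was most like Itgbl1 (0.93), Col3a1 (0.91) and Prrx2 (0.90), and Fmod like Capn6 (0.90), Acan (0.88) and Eef1b2 (0.87). Kera, whose UMIs in these sums all came from ABL replicate 2, was most like Mmp3 (0.89) and Tnmd (0.85). The most similar genes of Bgn were Tmed3 (0.91), Sec24d (0.90) and Tmem45a (0.90), and those of Ogn were Bicc1, Emb and Fbn1 (0.88, 0.88 and 0.87). Omd, Prelp and Podn had no gene above 0.81, the best being Olfml3 (0.70), St3gal4 (0.81) and Tmem159 (0.75). Between members, r was 0.91 for Dcn and Lum and -0.33 for Fmod and Ogn.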

How the data were processed

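Single-cell UMI counts of 4 libraries were used as deposited by the authors, who processed them with Cell Ranger on mm10 with the tdTomato sequence added (the v3 matrix headers give version 3.0.0) and named Seurat without a version. The deposited counts hold all barcodes, 737280 per library for v2 and 6794880 for v3, with no normalization. Cells were kept by the study's filters, a minimum of 500 detected genes with a mitochondrial limit of 20% for v2 and of 1000 genes with 15% for v3, which leave 1768 to 4809 barcodes. A UMI floor was added, the 99th percentile of the top 3000 barcodes divided by 10. This left 3433, 2404, 1459 and 2537 cells (CONT replicates 1 and 2, ABL replicates 1 and 2) from total UMI counts of 44784072, 40486876, 22889380 and 41536563. Doublets called by Scrublet (2 to 78 cells) stayed in the main analysis. Under 0.5% was called in CONT replicate 2, so the caller may not have worked there.

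Mesenchymal cells were clustered per replicate with Seurat 5.3.0 (2000 variable genes without SLRP genes, markers or list genes, integration by canonical correlation, 30 components, resolution 0.8). Clusters were named from marker lists by score and leading genes, with thresholds set after seeing the data. Of 128 marker genes 127 were found. Summed counts were tested with edgeR 4.0.16 (TMM, filterByExpr, quasi-likelihood) with replicate as a block, since the labels tie replicate number to chemistry. Deviations of same-numbered libraries correlated at 0.729 in reticular and 0.433 in all mesenchymal cells, which with 2 pairs are equal by construction. DESeq2 1.42.0 and other settings were alternatives. Only reticular cells had at least 10 cells in every library, so no other class was tested. Genes named were all members, up to 4 of each related list with the smallest p in reticular cells, and the 3 most similar genes per member. Intervals are exact Poisson or Clopper-Pearson at 95% and cover counting error only. The members and lists were chosen with earlier results of these data known. Fits were checked on simulated counts with 200 genes changed by 2 on the log2 scale. The reticular fit recovered 175 of these and the fit of all mesenchymal cells 90. The simulated spread followed the trend over all genes, with no spread particular to a gene, and genes with the lowest counts were not changed. These numbers therefore do not give the power for low-count genes or for genes whose replicates differ widely, such as Aspn.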

Additional observations from a re-analysis of the deposited data

Results flagged for a closer look

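Droplets taken as empty were used for the free-RNA estimate but were not themselves compared. They held more transcripts of Dcn, Bgn, Lum, Fmod, Aspn, Omd and Podn in ABL than in CONT in both replicates. This was not so for Ogn, Prelp and Kera, and for Podn the counting intervals overlapped in replicate 2. How many of all genes were higher in this way was not counted. In ABL replicate 2 these droplets held 2258 CPM of Dcn (395 in CONT replicate 2), 1938 CPM of Bgn (936), 1196 CPM of Lum (90.4), 581 CPM of Fmod (16.7), 341 CPM of Aspn (54.3), 108 CPM of Omd (8.71) and 17.6 CPM of Podn (13.3). In replicate 1 the values in ABL and CONT were 386 and 267 CPM for Dcn, 959 and 526 CPM for Bgn, 299.6 and 167 CPM for Lum, 31.7 and 6.25 CPM for Fmod, 68.2 and 20.9 CPM for Aspn, 36.0 and 8.61 CPM for Omd, and 10.3 and 5.77 CPM for Podn. The part that such RNA plays in the reticular values is given beside them. Groups of 2 libraries are too small for a test of outlying samples.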

How the results depend on the processing

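The 4 calls in reticular cells (Fmod, Omd, Aspn, Podn) were kept without TMM, without the filter on low counts, with the study's filter alone, with a stricter cell filter, at resolutions 0.4 and 1.5, with all variable genes, without integration, without doublets and in cells with a tdTomato UMI. The count of members called was 0 with no replicate block, 1 with DESeq2 and 1 in cells with a Y-linked UMI and no Xist UMI. Over all genes, 0 were called with no block, and 88 higher and 75 lower with DESeq2. In the cells with a Y-linked UMI and no Xist UMI, 41 genes were called higher and 17 lower. Fits with 1 library left out and no block assume that the lone sample varies like the others. Subtracting free RNA gave 5 member calls, with Dcn and Lum lower. Without TMM 365 genes were called higher and 170 lower, against 264 and 239, and the median log2 fold change of all genes was 0.09 in place of -0.01. In all mesenchymal cells 0 members were called (2118 genes at an unadjusted p under 0.05). Member calls with 1 library left out rest on a lone library on 1 side and are not given. The count was 2 without TMM, 3 without the filter on low counts and 3 with DESeq2. It was 2 with the study's filter alone, 2 without doublets, 2 in cells with a tdTomato UMI and 2 in cells with a Y-linked UMI and no Xist UMI. These counts moved with those over all genes, which were 191 higher and 63 lower at first, 518 and 234 without TMM, 455 and 207 without the filter on low counts, 395 and 227 with DESeq2, 394 and 217 with the study's filter alone, 313 and 135 without doublets, 340 and 156 in cells with a tdTomato UMI and 458 and 424 in cells with a Y-linked UMI and no Xist UMI.

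The genes of the related lists called numbered 9 in reticular cells, but 0 with no replicate block and 5 in cells with a Y-linked UMI and no Xist UMI (Col1a1, Col2a1, Col6a3, Wisp1 and Mmp2). In all mesenchymal cells 1 was called, but 0 with no replicate block, 9 without TMM, 5 without the filter on low counts, 13 with DESeq2, 6 with the study's filter alone, 3 without doublets, 4 in cells with a tdTomato UMI, 9 in cells with a Y-linked UMI and no Xist UMI (Chst1, Col5a3, Col14a1, Col6a3, Tgfb2, Wisp1 and Mmp2 higher, Adamts1 and Adamts4 lower), 0 with free RNA subtracted and 0 to 10 with 1 library left out. Thinning set the share of reticular cells with a UMI, averaged over 4 libraries, to 60.0% for Ogn and 2.43% for Aspn, against 88.4% and 5.69% without it, by construction. The summed SLRP level of reticular cells stayed within 3283 to 3324 CPM (3299 ± 659 SD, n = 4) under each alternative run for it.

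Log2 fold changes of uncalled genes turned sign as follows in reticular cells. Lum was -0.19 with no replicate block, -2.48 with free RNA subtracted, -1.01 without CONT replicate 2 and -0.50 without ABL replicate 2, Dcn was 0.24 without CONT replicate 1, and Ogn was -0.37 in cells with a Y-linked UMI and no Xist UMI. In all mesenchymal cells Prelp was 0.45 without ABL replicate 1, and Podn was -0.05 without ABL replicate 2 and -0.30 in cells with a Y-linked UMI and no Xist UMI. Unless named above, the cause of a change was not tested. Depth limited Aspn and Fmod most, with 18 to 61 UMIs in the reticular cells of a CONT library.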
